A study of Mus musculus with 6 samples.

Results

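The genes described here are 8 Sox transcription factors, Sox4, Sox5, Sox6, Sox7, Sox10, Sox11, Sox17 and Sox18, in the embryonic small intestine. A probe set, the group of short oligonucleotides that measures a transcript on the array, was included when its gene symbol in the platform annotation equalled 1 of these 8 names. This gave 33 of 45037 probe sets and 8 of 18193 genes. RNA came from the small intestine of C57BL/6 mouse embryos at embryonic day 18.5, divided into epithelium (3 arrays, A, B and C) and mesenchyme (3 arrays, A, B and C) and hybridised to Affymetrix Mouse Genome 430 2.0 arrays. The opened intestine lay for 9 hours at 4 °C in Cell Recovery Solution, and agitation then freed the epithelium. Each array held the RNA of 1 pool of 3 embryos. Of 6 pools prepared per tissue, 3 were chosen by RT-PCR for low carry-over of the other tissue, with Vil1 and Prkg2 as epithelial and Vim, Madcam1 and Actg2 as mesenchymal transcripts.

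Sox proteins bind DNA through an HMG box related to that of Sry and bend it, and they are grouped by the similarity of this domain. Sox4 and Sox11 belong to the SoxC group, found in many embryonic progenitors and in young neurons; Sox5 and Sox6 are SoxD factors, which lack a transactivation domain and work with Sox9 in cartilage; Sox10 is a SoxE factor of the neural crest and of enteric glia; and Sox7, Sox17 and Sox18 are SoxF factors of blood and lymphatic endothelium. Sox17 also acts in the early definitive endoderm, from which the gut epithelium descends.

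Of the 8 genes, 5 were higher in the mesenchyme, namely Sox4, Sox11, Sox7, Sox17 and Sox18, and none was higher in the epithelium. Both SoxC genes and all 3 SoxF genes were among them, whereas Sox5, Sox6 and Sox10 were not called by the brightest of their probe sets. A call required an adjusted p under 0.05 (limma, Benjamini-Hochberg) and a difference of at least 1 on the log2 scale, which is 2-fold. By the same criteria 24.1% of all genes were called, 15.9% higher in the mesenchyme and 8.19% higher in the epithelium. Among the 33 probe sets, 16 were called higher in the mesenchyme and 0 in the epithelium, beside 21.5% of all probe sets called in either direction, 15.5% higher in the mesenchyme and 5.98% in the epithelium. The arrays of the tissues did not overlap at 20 of the 33 probe sets (60.6%), beside 41.7% of all probe sets. The median difference, epithelium minus mesenchyme, was -0.97 over the 33 probe sets and -0.17 over all probe sets, and -2.52 over the 8 genes and -0.17 over all genes. With all probe sets of a gene averaged in place of the brightest, the median of the 8 genes was -1.20 and the same number, 5, were called. In bulk tissue, fewer cells of a type and less RNA per cell cannot be told apart. Differences below are on the log2 scale with the standard error (SE) of limma and n = 3 arrays per tissue, adjusted p-values of Sox probe sets run over all probe sets, and those of other genes run over all genes.

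**Figure D1:**
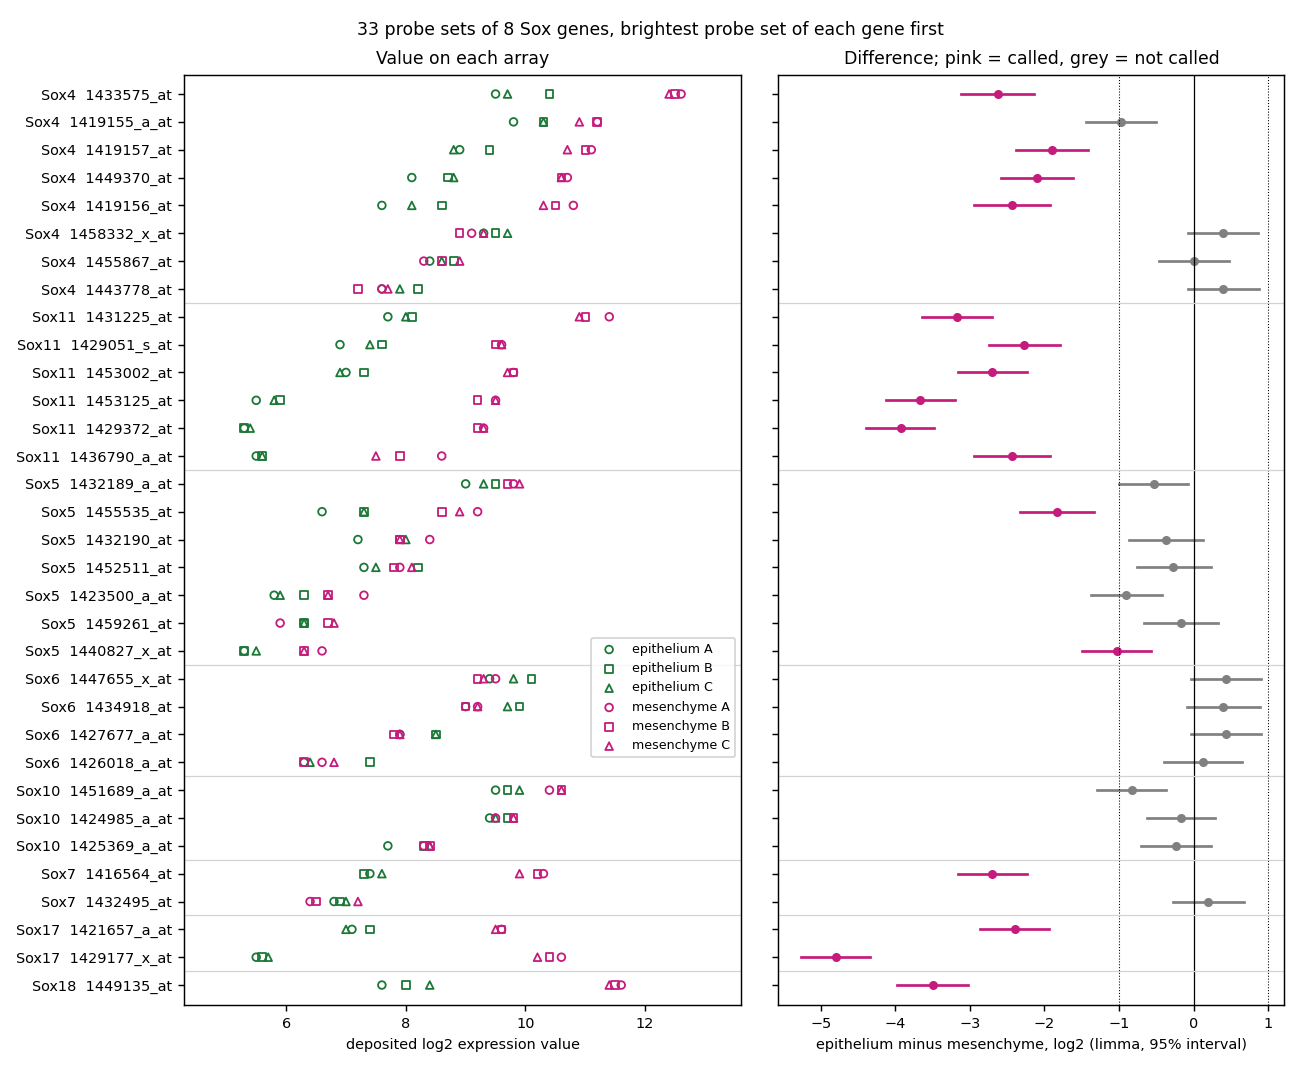
Deposited log2 values on each array (left; green epithelium, pink mesenchyme, symbols for arrays A, B and C) and the difference between tissues with its 95% interval from limma (right; pink called, grey not called; dotted lines at a difference of 1 in either direction) for the 33 probe sets of 8 Sox genes. All 6 probe sets of Sox11 lie on the mesenchymal side, while those of Sox4, Sox5 and Sox7 are divided between called and not called.

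The tissues matched their labels by their defining transcripts. Vil1, Epcam and Cdh1 were higher in the epithelium by 4.70 ± 0.25, 4.63 ± 0.24 and 5.63 ± 0.27, and all 9 epithelial genes were called higher there. All 8 smooth muscle genes and 7 of 8 fibroblast genes were called higher in the mesenchyme, with median differences of -4.75 and -6.25. Vil1, Vim and Actg2 had served to select the pools and are no independent check of the labels. Epcam, Cdh1 and the other genes of these lists had not served in that selection. All lists were, however, chosen with earlier results of these data known. Array medians lay between 8.1 and 8.7, and the per-array mean of 27 bacterial control probe sets, whose targets are no mouse transcripts, was 5.87 to 6.25. The highest of these controls averaged 7.98 over the arrays. All epithelial readings of Sox7 and Sox17, and those of Sox11 outside its brightest probe set, were under 7.98. These readings may be partly background, so their folds are not exact. The mean of the spike-in controls was lowest in mesenchyme B, at 9.80, and lay at 10.56 to 10.77 on the other 5 arrays. Precision is limited by there being 3 arrays per tissue.

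Of the 14 probe sets of the SoxC genes, 10 were called (71.4%). The RefSeq sequence upstream of their start (mouse assembly GRCm38.p6, minus strand, 250 bases ending at the base before the start) is shown because both genes were higher in the same tissue. Capitals mark matches, on either strand, to the CCAAT box (CCAAT, or ATTGG on the opposite strand) and the GC box (GGGCGG, or CCGCCC). The Sox4 window is chr13:28953700-28953949 and the Sox11 window is chr12:27342719-27342968.
Sox4: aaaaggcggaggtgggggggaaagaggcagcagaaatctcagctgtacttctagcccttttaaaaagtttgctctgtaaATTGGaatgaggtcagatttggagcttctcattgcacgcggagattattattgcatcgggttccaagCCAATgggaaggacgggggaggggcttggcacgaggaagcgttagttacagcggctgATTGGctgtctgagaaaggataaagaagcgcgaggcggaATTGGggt
Sox11: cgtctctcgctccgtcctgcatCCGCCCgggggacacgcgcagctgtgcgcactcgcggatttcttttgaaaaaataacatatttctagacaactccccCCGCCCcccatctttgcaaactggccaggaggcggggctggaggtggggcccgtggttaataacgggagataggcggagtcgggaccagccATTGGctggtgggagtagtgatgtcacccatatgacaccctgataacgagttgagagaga
The Sox4 window held 4 matches to CCAAT and the Sox11 window 1. Of 32841 mouse windows of this length, each upstream of a gene start, 33.9% held at least 1 and 0.84% at least 4. The GC box had 2 matches in the Sox11 window and 0 in that of Sox4, and 32.7% of windows held it. Neither TATAAA, present in 12.4% of windows, nor the Sox core motif AACAAT, present in 9.43%, matched in either window on either strand. The windows held 11 CpG dinucleotides in Sox4 and 17 in Sox11, beside a median of 6 over all windows. Fewer were held by 64.4% of windows for Sox4 and by 76.5% for Sox11. A match is a description of these letters and was not tested for binding.

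Sox4, active in embryonic progenitors and in differentiating neurons, was measured by 8 probe sets. Its brightest, 1433575_at, read 9.5, 10.4 and 9.7 in epithelium A, B and C and 12.6, 12.5 and 12.4 in mesenchyme A, B and C. Every mesenchymal array was above every epithelial one, and epithelium B was the highest of its tissue. The difference of 2.63 ± 0.24 (SE) amounted to 6.2-fold, with an adjusted p of 1.44e-11 (limma). Probe sets 1419156_at, 1449370_at and 1419157_at were called too, higher in the mesenchyme by 2.43 ± 0.25, 2.10 and 1.90 ± 0.23. At 1419155_a_at the epithelial arrays read 9.8, 10.3 and 10.3 and the mesenchymal arrays 11.2, 11.2 and 10.9. These did not overlap, but the difference of -0.97 (95% interval -1.44 to -0.50, limma adjusted p = 0.000897) missed the 2-fold criterion. It passed scaled to the spike-in controls (-1.23, but -0.89 when mesenchyme B was also left out), without epithelium B (-1.05), without epithelium C (-1.05) and without mesenchyme C (-1.07).

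At the other 3 probe sets of Sox4 the deposited values overlapped between tissues. Probe set 1455867_at read 8.4, 8.8 and 8.6 in the epithelium against 8.3, 8.6 and 8.9 in the mesenchyme. Its difference was 0.00 with an interval from -0.47 to 0.47, so that the difference of the brightest probe set lay far outside it. Probe sets 1458332_x_at and 1443778_at were each 0.40 higher in the epithelium, with intervals from -0.07 to 0.87 and from -0.08 to 0.88, and the arrays overlapped at both. Under quantile, loess, median and ribosomal scaling they were 0.69 to 0.73 and 0.61 to 0.72 higher in the epithelium (limma adjusted p from 0.00113 to 0.00673), under 2-fold. An _x_at probe set, here of Sox4 and below of Sox17, Sox5 and Sox6, contains probes that can also match other transcripts. Which transcript each probe set read was not tested. With the mean of all 8 probe sets, the difference of Sox4 was -1.15 and was still called.

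Sox11, the SoxC partner of Sox4 in neurons and mesenchymal progenitors, was called by all 6 of its probe sets, higher in the mesenchyme by 2.27 to 3.93. The brightest, 1431225_at, read 7.7, 8.1 and 8.0 in the epithelium against 11.4, 11.0 and 10.9 in the mesenchyme. The tissues were far apart, and mesenchyme A was the highest array. The difference was 3.17 ± 0.23 (SE), or 8.98-fold (limma adjusted p = 3.68e-14). Probe set 1429372_at read 5.3, 5.3 and 5.4 in epithelial and 9.3, 9.2 and 9.3 in mesenchymal arrays, a difference of 3.93 ± 0.22 or 15.3-fold. Arrays of 1 tissue differed by at most 0.1 there, and the epithelial readings were below the mean of the bacterial controls on those arrays (5.92 to 6.07), so that this fold is not an exact one. The mesenchymal arrays spread most at 1436790_a_at, which read 8.6, 7.9 and 7.5 against 5.5, 5.6 and 5.6 in the epithelium, a difference of 2.43 ± 0.25. Epithelial readings of 1436790_a_at and 1453125_at were below those control means too.

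Of 4 genes known as direct SoxC targets, 3 were called higher in the mesenchyme. These were Tead2, a transcription factor of the Hippo pathway, by 3.40 ± 0.25, Tubb3, the neuronal beta-tubulin, by 3.33 ± 0.23, and Stmn1, a microtubule regulator, by 1.40 ± 0.23. Dcx, a microtubule protein of migrating neurons, had a difference of -0.57 and was not called. The list's median was -2.37, beside -0.17 over all genes, and its summed level was 12.05 to 12.56 on the epithelial and 13.82 to 13.85 on the mesenchymal arrays. Markers of enteric neurons moved the same way, with 11 of 14 called higher in the mesenchyme, a median of -3.47 and summed levels of 11.76 to 12.13 and 14.40 to 14.49. Uchl1, a neuronal ubiquitin hydrolase, differed by 5.17, Vip, an inhibitory neuropeptide, by 5.07, Hand2, a factor of enteric neuron differentiation, by 4.07, and Elavl4, a neuronal RNA-binding protein, by 4.00. Tubb3 and Dcx belong to both lists. The part of neurons, smooth muscle and fibroblasts in the SoxC differences was not tested.

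The SoxF genes were called by 4 of 5 probe sets (80%, beside 21.5% of all probe sets). Sox17, a regulator of arterial endothelium and of endoderm, read 5.5, 5.6 and 5.7 in the epithelium against 10.6, 10.4 and 10.2 in the mesenchyme at 1429177_x_at. All mesenchymal arrays were far above the epithelial ones. The difference was 4.80 ± 0.23 (SE), or 27.9-fold (limma adjusted p = 1.67e-19). The epithelial readings were below the mean of the bacterial controls on those arrays (5.92 to 6.07), so that this fold is set against background and is not an exact one. Its brighter probe set, 1421657_a_at, read 7.1, 7.4 and 7.0 against 9.6, 9.6 and 9.5, a difference of 2.40 or 5.28-fold. Both probe sets were called higher in the mesenchyme.

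Sox18, which acts upstream of Prox1 in the first lymphatic endothelial cells, had 1 probe set. It read 7.6, 8.0 and 8.4 in the epithelium against 11.6, 11.5 and 11.4 in the mesenchyme. The epithelial arrays spread more than the mesenchymal ones, and no array overlapped. The difference was 3.50 ± 0.24 (SE), or 11.3-fold (limma adjusted p = 3.97e-15). Sox7, a factor of endothelial and early blood precursors, read 7.4, 7.3 and 7.6 against 10.3, 10.2 and 9.9 at 1416564_at. All mesenchymal arrays were higher, by 2.70 ± 0.23 (SE) or 6.5-fold (limma adjusted p = 1.74e-12). The other Sox7 probe set, 1432495_at, read 6.8, 6.9 and 7.0 against 6.4, 6.5 and 7.2. The arrays overlapped, and the difference of 0.20 had an interval from -0.28 to 0.68. With the mean of both probe sets the difference of Sox7 was -1.25, and it was still called.

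Endothelial genes were higher in the same tissue as the SoxF genes. Of 18 blood endothelial genes, 16 were called higher in the mesenchyme, with a median of -3.17 and summed levels of 12.84 to 13.18 in the epithelium against 15.48 to 15.67 in the mesenchyme. Plvap, a protein of the diaphragms of fenestrated vessels, differed by 5.60, Cd34, a sialomucin of endothelium and progenitors, by 4.53, Tek, the angiopoietin receptor, by 4.50, and Ramp2, a co-receptor for adrenomedullin, by 3.97. Egfl7 and Erg were not called, at -0.37 and -0.53. Of 6 lymphatic genes, 5 were called higher in the mesenchyme (median -2.50), with summed levels of 10.78 to 11.02 and 13.58 to 13.93. Lyve1, a hyaluronan receptor, differed by 5.23 ± 0.26, Flt4, the receptor for Vegf-c, by 2.97, Reln, a secreted glycoprotein, by 2.77 and Pdpn, a membrane mucoprotein, by 2.23. Prox1, the lymphatic master regulator and a target of Sox18, had a difference of -0.70 (limma adjusted p = 0.0145), under the 2-fold criterion. The part of the number of vessel cells in the SoxF differences was not tested.

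Of 12 targets and partners of SoxF factors, 8 were called higher in the mesenchyme, with a median of -1.63 and summed levels of 12.61 to 12.96 and 14.08 to 14.17. Mef2c, a transcription factor that works with Sox18, differed by 3.70, Robo4, an endothelial guidance receptor, by 2.90, Cdh5, the endothelial cadherin, by 2.63 and Cldn5, the endothelial claudin, by 2.40. Dll4, a Notch ligand of arteries, was at -0.77, Egfl7 at -0.37, Prox1 at -0.70 and Mmp7, a matrix protease, at 0.40, none of them called. Cdh5, Cldn5, Robo4, Egfl7 and Prox1 also stand in the endothelial lists. Among 6 genes of definitive endoderm, Gata6, Gata4 and Foxa1, transcription factors retained in gut epithelium, were higher in the epithelium by 3.63, 2.80 and 2.53. Cxcr4, a chemokine receptor, and Hhex, a homeobox factor also of endothelium, were higher in the mesenchyme by 3.83 and 2.20, as Sox17 was. The list's median was 1.30, with summed levels of 12.58 to 13.15 and 11.55 to 11.79.

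**Figure D2:**
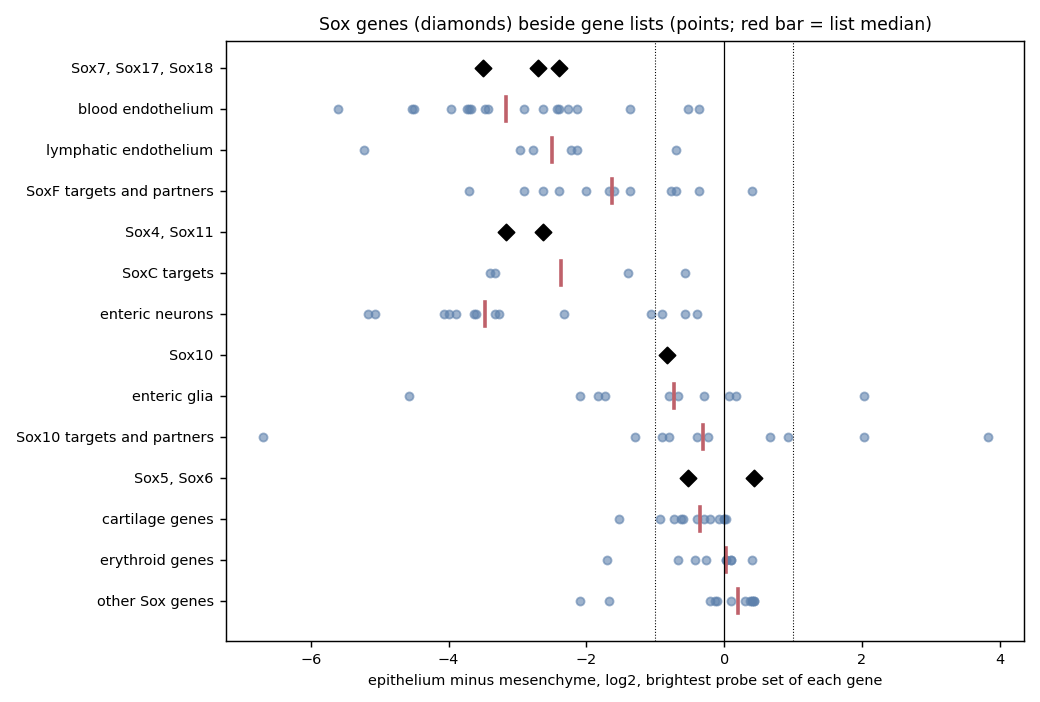
Difference between tissues (epithelium minus mesenchyme, log2) for each gene's brightest probe set, with Sox genes as diamonds, genes of each list as points, list medians as red bars and dotted lines at a difference of 1 in either direction. The SoxF diamonds (-3.50 to -2.40) lie within the range of the blood endothelial genes, and within that of the enteric neuron genes as well. Sox10 at -0.83 lies near the enteric glia median of -0.73, but that list spreads from -4.57 (Fabp7) to 2.03 (Erbb3).

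Sox10, required for enteric neural crest and glia, was not called by any of its 3 probe sets. The brightest, 1451689_a_at, read 9.5, 9.7 and 9.9 in the epithelium against 10.4, 10.6 and 10.6 in the mesenchyme. The tissues did not overlap, but the difference of -0.83 ± 0.23 (95% interval -1.29 to -0.37, limma adjusted p = 0.00324) was 1.78-fold. Scaled to the spike-in controls it was -1.09 and was called, but the same scaling without mesenchyme B gave -0.77, not called. With the mean of its 3 probe sets the difference of Sox10 was -0.41 (limma adjusted p = 0.116). At 1424985_a_at and 1425369_a_at the arrays overlapped, with differences of -0.17 (-0.63 to 0.29) and -0.23 (-0.71 to 0.24) that turned positive under 4 and 3 other scalings of the arrays.

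Of 10 enteric glia genes, 4 were called higher in the mesenchyme and 1 in the epithelium, with a median of -0.73 and summed levels of 12.48 to 12.89 and 13.03 to 13.09. Fabp7, a fatty acid-binding protein of glial progenitors, differed by 4.57 ± 0.25, Sox2 by 2.10 ± 0.24, Ngfr, a neurotrophin receptor, by 1.83 and Cdh19, a glial cadherin, by 1.73. Erbb3, a neuregulin receptor that epithelia also express, was higher in the epithelium by 2.03 ± 0.23. S100b, Gfap and Foxd3 were not called, at 0.17, 0.07 and -0.30. Of 10 targets and partners of Sox10, 2 were called in each direction, with a median of -0.32 and summed levels of 13.42 to 13.97 and 14.03 to 14.17. Ednrb, an endothelin receptor that acts in the enteric neural crest, was higher in the mesenchyme by 6.70 and Zeb2, a zinc-finger factor, by 1.30. Ednrb read 13.6, 13.4 and 13.5 in the mesenchyme, and which cells held it was not tested. Gjb1, a connexin of Schwann cells and of epithelia, was higher in the epithelium by 3.83.

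The SoxD genes had 2 of 11 probe sets called (18.2%, beside 21.5% of all probe sets), both of Sox5. Sox5, a partner of Sox9 in cartilage and a regulator of neuronal fate, read 6.6, 7.3 and 7.3 in the epithelium against 9.2, 8.6 and 8.9 in the mesenchyme at 1455535_at. The arrays did not overlap, and epithelium A was the lowest. The difference was 1.83 ± 0.24 (SE), or 3.56-fold (limma adjusted p = 7.58e-08). Probe set 1440827_x_at read 5.3, 5.3 and 5.5 against 6.6, 6.3 and 6.3. Epithelial readings of this probe set were below the mean of the bacterial controls on those arrays (5.92 to 6.07). Its difference of 1.03 ± 0.23 was at the border of the 2-fold criterion, and the call was lost without mesenchyme A (-0.93) and under 4 other scalings (-0.87 to -0.72). The brightest probe set, 1432189_a_at, read 9.0, 9.5 and 9.3 against 9.8, 9.7 and 9.9. These did not overlap, yet the difference of -0.53 ± 0.23 missed both criteria (limma adjusted p = 0.065).

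Of the remaining 4 probe sets of Sox5, 1423500_a_at did not overlap between tissues, with a difference of -0.90 (-1.38 to -0.42). It passed the 2-fold criterion scaled to the spike-in controls (-1.16, but -0.97 when mesenchyme B was also left out) and without epithelium B (-1.05), and just reached it without mesenchyme B or without mesenchyme C. At 1432190_at, 1452511_at and 1459261_at the arrays overlapped and the differences were -0.37, -0.27 and -0.17, the last 2 of which changed sign under other scalings. Sox6, which acts with Sox5 in cartilage and also in red cell precursors, had 0 of 4 probe sets called. Its brightest, 1447655_x_at, read 9.4, 10.1 and 9.8 in the epithelium against 9.5, 9.2 and 9.3 in the mesenchyme. Epithelium A lay among the mesenchymal arrays, and the difference of 0.43 had an interval from -0.04 to 0.91. Probe sets 1427677_a_at, 1434918_at and 1426018_a_at gave 0.43, 0.40 and 0.13, with intervals that include 0 and overlapping or tied arrays in the deposited values. Under quantile, loess, median and ribosomal scaling, 1447655_x_at was 0.71 to 0.76, 1427677_a_at 0.65 to 0.76 and 1434918_at 0.69 to 0.72 higher in the epithelium. These stayed under 2-fold (limma adjusted p from 0.00112 to 0.00825). For the same probe sets the spike-in scaling gave 0.17, 0.17 and 0.14, and 0.40, 0.43 and 0.36 when mesenchyme B was also left out.

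Of 12 cartilage genes that Sox9 controls with Sox5 and Sox6, 1 was called, Col2a1, the chain of type II collagen, higher in the mesenchyme by 1.53. The list had a median of -0.35 and summed levels of 11.62 to 11.93 and 12.13 to 12.43. Of 9 erythroid genes, 1 was called, Alas2, the first enzyme of heme synthesis in red cells, higher in the mesenchyme by 1.70. Their median was 0.03, with summed levels of 11.59 to 11.96 and 12.12 to 12.26.

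The remaining Sox genes on the array were 12, with 20 probe sets. Sox2, a factor of glial and neural progenitors, read 5.0, 5.2 and 5.4 in the epithelium against 7.6, 6.8 and 7.5 in the mesenchyme. Its epithelial readings were below the mean of the bacterial controls on those arrays (5.92 to 6.07). Sox12, the third SoxC gene, read 9.2, 9.7 and 9.3 against 10.9, 11.0 and 11.3 at its brightest probe set, a difference of 1.67 ± 0.23. Sox2 and Sox12 were called higher in the mesenchyme, with no overlap at these probe sets. They were 2 of the 12 genes, beside 15.9% of all genes called higher there. Another Sox12 probe set, 1439754_at, was called higher in the mesenchyme too, at -1.20 with no overlap (limma adjusted p = 4.62e-05). The third probe set of Sox12, 1456882_at, was at 0.10 with overlapping arrays. With all probe sets of a gene averaged, 1 of the 12 genes was called, Sox2, and Sox12 was not. With probe sets under the highest bacterial control (7.98) left out, Sox2 was not tested, and 1 gene, Sox12, was called. The other 10, Sry, Sox1, Sox3, Sox8, Sox9, Sox13, Sox14, Sox15, Sox21 and Sox30, were not called and differed by -0.20 to 0.43 at their brightest probe sets. At the other probe sets of these 10 genes, none was called; Sox3 1435192_at was at -0.80 with no overlap and Sox21 1451835_at at -0.47. Sox9, the Sox factor of epithelial progenitors, was at 0.37 by its brightest probe set, at 0.93 by 1424950_at and at -0.27 by 1433889_at. At 1424950_at the arrays did not overlap (limma adjusted p = 0.00191). None of the 3 probe sets passed the 2-fold criterion in the deposited values. Median and ribosomal scaling shifted every difference by 0.30 and 0.32 towards the epithelium, which takes 1424950_at past a 2-fold difference. Its adjusted p under those scalings is not given here. Of 14 genes of epithelial progenitors, endocrine and tuft cells, Olfm4, a progenitor glycoprotein, and Atoh1, the secretory lineage factor, were called higher in the epithelium by 5.33 and 1.60. That list had a median of 0.47 and summed levels of 13.44 to 13.96 and 12.53 to 12.76.

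The 16 called probe sets kept their direction under the 5 other scalings of the arrays that were run. Quantile, cyclic loess, median and ribosomal scalings moved the median of all probe sets towards the epithelium by 0.19 to 0.32, and the spike-in scaling moved it by -0.26, or by -0.02 without mesenchyme B. They left 15, 15, 15, 15 and 19 of the 33 probe sets called, all higher in the mesenchyme, and the 19 became 16 without mesenchyme B. The share of all calls that were higher in the mesenchyme was 72.1% in the deposited values, 53.7% to 60.7% under the first 4 scalings and 82.7% with the spike-in controls, or 73.3% when mesenchyme B was left out of that scaling. Sox17 at 1429177_x_at ranged from -5.06 to -4.48, Sox18 from -3.76 to -3.18 and Sox4 at 1433575_at from -2.89 to -2.32.

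**Figure D3:**
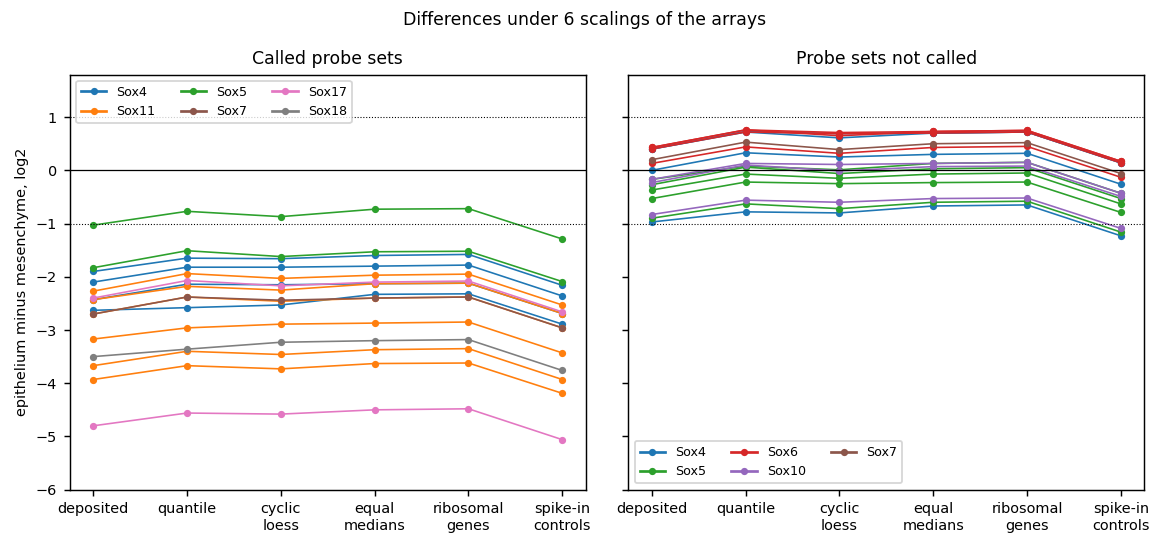
Difference between tissues (epithelium minus mesenchyme, log2) of each Sox probe set under the deposited scaling and 5 others, called probe sets left and the others right, 1 line per probe set coloured by gene, dotted lines at a difference of 1 in either direction. All called probe sets stay below 0 and 1 of them, of Sox5, crosses the dotted line at -1. Of the probe sets not called, 1 each of Sox4, Sox5 and Sox10 cross that line with the spike-in controls, and others cross 0.

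For each of the 5 called genes, the genes with the most similar values were sought by the root mean square difference over the 6 arrays, each gene centred on its own mean. Those of Sox4 were Grb10, an adaptor that restrains insulin signalling, Tubb2a, a beta-tubulin, and Anln, a protein of the cytokinetic ring, at 0.037 to 0.058. Those of Sox11 were Pi15, Spin4 and Cmtm3 (0.069 to 0.094), and those of Sox7 were Rtl8c, Prss35 and Zfp804a (0.069 to 0.115). Sox17 was matched by Lix1l, whose centred values were identical after rounding, Spry4, an inhibitor of receptor tyrosine kinase signalling, and Zfp423, and Sox18 by C1qa, a complement subunit of macrophages, Fmnl2 and Igf1. With values rounded to 0.1, from 13 genes (Sox18) to 91 genes (Sox17) lay within 0.15 of a Sox gene, so that these names describe 1 of many similar patterns between only 2 tissues.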

How the data were processed

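Total RNA from 3 epithelial and 3 mesenchymal pools was measured on arrays. The authors deposited log2 values per probe set, made with RMA per the submitters' processing notes. Its version, its settings and any step across arrays are not given in the sources used here. Deposited values had a step of 0.1 and a range of 4.6 to 15.2, with no detection calls. Of 45101 probe sets, 64 controls were set aside. The annotation gave 1 symbol for 34945, several for 932 (not used for genes) and none for 9160. A gene was represented by its brightest probe set over the 6 arrays.

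Tissues were compared with limma 3.58.1 (R 4.3.3; lmFit and eBayes; 4 residual and 31.7 prior degrees of freedom) on the deposited log2 values without further scaling, tested on simulated data. Nothing states that pools came from separate litters, so p-values refer to these pools only, which had been selected by RT-PCR. Most of each spread is borrowed from all probe sets (31.7 prior against 4 residual degrees of freedom). The size of a p-value also changes with the setting. For Sox17 1429177_x_at the limma adjusted p was 1.67e-19 on the deposited values. It was 7.97e-09 under quantile scaling, 1.92e-42 with the spike-in controls and 1.36e-06 with the letters as blocks. A list's summed level is the log2 of its summed linear values. Correlations of deviations between same-lettered arrays were -0.31, -0.15 and 0.12, and the letters were not used as pairs. Between-array correlation was 0.978 to 0.984 within a tissue, and no 2 arrays were copies. The 3' minus 5' difference of Gapdh and beta-actin controls was 0.03 and 0.33 on average in epithelial and -0.03 and 0.30 in mesenchymal arrays (exact permutation p = 0.9 and 1, two-sided, smallest possible 0.1).

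The Sox genes and all lists were chosen with earlier results of these data known. Named were all 8 Sox genes and the other Sox genes, up to 4 called genes per list with the largest difference and those called against its majority, and the 3 most similar genes of each called Sox gene. Uncalled genes and tissue markers named beside them, and the Sox9 and Sox12 probe sets, were added after their values were seen. Upstream sequences are from RefSeq (GRCm38.p6) and were found for 4 of the 8 genes, Sox4, Sox5, Sox6 and Sox11. The array files name no genome build, so no position was assigned to probe sets.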

Additional observations from a re-analysis of the deposited data

How the results depend on the processing

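Over 674 single values of the Sox genes and their probe sets under the alternatives, 621 kept their direction and their side of the threshold, 5 lost the call, 14 gained it and 17 changed sign. The other 17 belong to Sox4 1455867_at, whose deposited difference of 0.00 has no direction; it was -0.26 to 0.33 over the scalings and was not called. With no minimum difference, 16887 probe sets and 7503 genes were called, beside 9671 and 4384. Restricted to probe sets brighter than the median one, 6002 were called, 7 of them among the 15 Sox probe sets that remained, and 4 Sox genes were called. Above the highest bacterial control 7202 were called, 11 of them among the 21 Sox probe sets that remained, and 5 Sox genes were called. How many of all probe sets remained is not given here, so no share stands beside these counts. With 1 array left out, 9071 to 10764 probe sets, 15 to 18 Sox probe sets, 4161 to 4770 genes and 5 to 5 Sox genes were called. With the replicate block, 9579 probe sets, 16 Sox probe sets, 4367 genes and 5 Sox genes were called. All changes of sign were in probe sets not called. For Sox5, 1452511_at was 0.06, 0.03 and 0.05 under quantile, median and ribosomal scaling, and 1459261_at was 0.08, 0.01, 0.13 and 0.15 under quantile, loess, median and ribosomal scaling. For Sox10, 1424985_a_at was 0.13, 0.11, 0.13 and 0.15 under the same 4 scalings, and 1425369_a_at was 0.10, 0.07 and 0.08 under quantile, median and ribosomal scaling. For Sox6, 1426018_a_at was -0.13 with the spike-in controls and ranged from -0.22 (without epithelium B) to 0.33 (without epithelium A) with 1 array left out. Sox7 1432495_at was -0.06 with the spike-in controls. With mesenchyme B also left out of the spike-in scaling, 1426018_a_at was 0.03 and 1432495_at was 0.13, with no change of sign. These scalings differ by a shift of all values on an array or by a bend with intensity, and which one fits these arrays was not tested. Without detection calls, values near background have no marked limit and understate folds, and differences of 0.1 are within the rounding.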
